A study of Caenorhabditis elegans with 9 samples.

Results

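Gene expression of whole Caenorhabditis elegans of the strain WLZ3, which carries human LRRK2 G2019S, was compared with that of the wild type N2 (Bristol). The comparison took the 3 WLZ3 libraries and the 3 N2 libraries, and its members were all genes with at least 1 FPKM (fragments per kilobase of gene length, scaled to the sequencing depth) in at least 3 of these 6 libraries. This held for 14115 of the 28749 genes in the deposited table. WLZ3 carries the integrated array wlzIs3, in which the promoter of the worm synaptobrevin gene snb-1 drives human LRRK2 G2019S, with a lin-15(+) marker. The strain WLZ1, with the array wlzIs1 for the wild-type human protein and the same promoter and marker, gave 3 further libraries and served as a second reference. N2 carries no array, so the marker and the array itself cannot be told apart from the mutant kinase in a comparison with N2. Cultures were kept at 20 °C with OP50 bacteria as food, and poly(A) RNA was sequenced in pairs of reads on an instrument that is not given library by library. Stage, age and sex of the animals are not stated in these sources. Each strain is 1 array insertion, and separate cultures behind the libraries of a strain are not documented, so each p reflects the spread among these libraries alone, which may be technical.

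LRRK2 is a large protein with a kinase and a GTPase domain, and dominant changes in it are a cause of Parkinson's disease. G2019S lies in the kinase domain and raises kinase activity toward substrates that include Rab GTPases, which steer vesicle and lysosome traffic. Worms have 1 related gene, lrk-1. Synaptobrevin is a vesicle protein of all neurons, so its promoter is used for expression throughout the nervous system, whereas the RNA measured here came from the whole animal, in which germ line, gut, epidermis and muscle supply most of the transcripts.

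The libraries held 38128734 to 49302679 reads in N2 and 44994277 to 51035227 in WLZ3, recovered from the FPKM values. Within both groups, libraries correlated at 0.985 to 0.991 (Pearson, over the log2(FPKM + 1) of the tested genes, which are not independent). WLZ3 replicate 1 was the most divergent of the 9 libraries, with 317 genes more than 2-fold from the mean of its 2 companions, against 251 for WLZ3 replicate 2 and 161 for replicate 3. Counts that depend on it are given with and without it below. Genes that mark neurons (snt-1), pharyngeal muscle (myo-2), epidermis (cut-2), gut (vit-1) and germ line (him-3) were all above 0 in every library, with values below.

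In WLZ3, many genes of neurons, pharynx, muscle, cuticle and heat shock were lower than in N2, while many genes of germ line and early embryo were higher. Sperm genes also stood higher, but many of them passed the filter with the help of WLZ3, so their counts are no support for a rise. Quantile normalization brought several list medians given below nearer to 0, to -0.29 for ion channels, -0.33 for neuropeptide-like proteins, -0.23 for dopamine, glia and basement membrane, -0.36 for hedgehog-related genes, -0.31 for cuticlins and moulting and -0.17 for collagens. The falls were the larger changes: the median called fall was -0.55 and the median called rise 0.24, as differences of log2(FPKM + 1), the scale of all changes below. Of the 14115 genes, 5418 were called (38.4%, limma adjusted p under 0.05), 1968 higher (13.9%) and 3450 lower (24.4%). Called rises of at least 1 on this scale numbered 144 (1.02%) and called falls of at least 1 numbered 268 (1.9%). The scale understates the change of low genes, so more genes changed 2-fold by the ratio of mean FPKM. The median over all tested genes was -0.04. The balance of directions depended on scaling: 36.3% of the called genes were higher with the deposited values, 48.98% after median-of-ratios scaling and 51.7% after quantile normalization. The number of higher genes fell to 1097 without N2 replicate 2, 1222 without N2 replicate 3, 1115 without WLZ3 replicate 1 and 1194 without WLZ3 replicate 2, and the lower genes to 2236 without N2 replicate 2. Against WLZ1, WLZ3 was higher at 4415 genes (31.3%) and lower at 1428 (10.1%), with a median of 0.12 over all tested genes that moved to 0.00 after median-of-ratios scaling and -0.05 after quantile normalization. These comparisons share the WLZ3 libraries and are not independent.

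**Figure D1:**
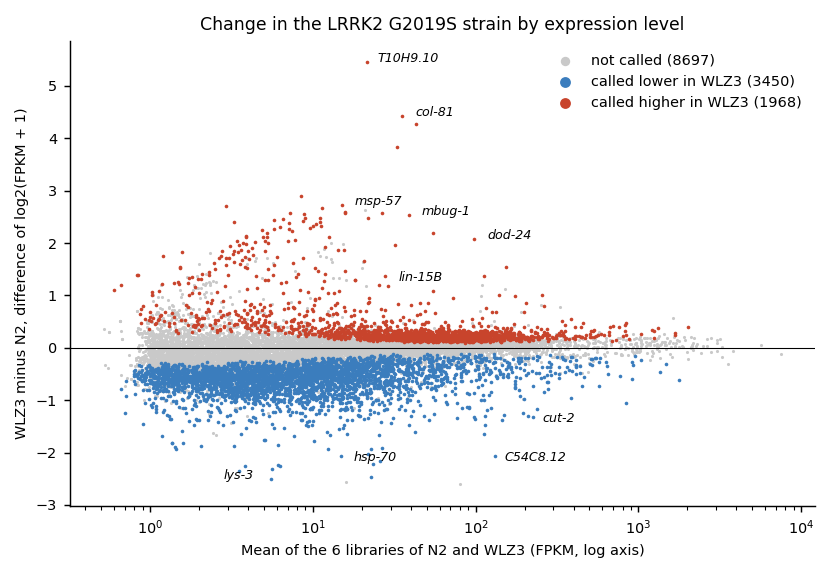
Change in WLZ3 against N2 (difference of log2(FPKM + 1), mean of 3 libraries a group) for each of the 14115 tested genes, against the mean FPKM of the 6 libraries on a log axis. The 1968 called rises (red) are mostly small changes of well-expressed genes, most of the 3450 called falls (blue) are of genes under 100 FPKM in N2, with 202 above that level, and the named genes are examples given in the text.

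The level of a gene in N2 separated the directions. Among 4092 genes under 5 FPKM in N2, 260 rose and 1107 fell, and among 3838 genes from 5 to 20 FPKM, 276 rose and 1394 fell. For 4759 genes from 20 to 100 FPKM the order turned, with 1109 rises and 747 falls. Falls were more frequent on the X chromosome than on the autosomes. On the X 862 of 2082 tested genes were called lower (41.4%) and 75 higher (3.6%), at a median of -0.25, while on the autosomes 21.5% fell and 15.7% rose, with a median of 0.00. This held at each level, most of all from 20 to 100 FPKM, where 46.8% of 449 X genes and 12.5% of 4308 autosomal genes fell. Of the 14 tested genes of mitochondrial DNA, 4 rose and 0 fell, with a median of 0.28. These are shares over genes and carry no test.

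The genes that the array names came first as a check of the labels. lin-15B, a nuclear protein that restrains germline and vulval programmes, stood at 16.8, 17.8 and 17.9 FPKM in the N2 libraries and at 37.8, 42.8 and 41.8 in WLZ3, 2.33-fold higher (limma adjusted p = 2.11e-05). Its operon partner lin-15A stood at 16.8 ± 0.773 in N2 and 22.7 ± 0.387 in WLZ3 (means ± SD over n = 3 libraries, as in all such values), 1.35-fold higher (adjusted p = 0.0012). Both lay below their WLZ1 levels of 82.8 ± 5.53 and 74.5 ± 3.64. The worm's own snb-1 stood at 188, 208 and 191 FPKM in N2 and 172, 176 and 164 in WLZ3 (log2 change -0.20, adjusted p = 0.032). The call was absent when N2 replicate 2 (adjusted p = 0.111) or 3 (0.0588) or WLZ3 replicate 1, 2 or 3 (0.0725, 0.0533 and 0.0973) was left out, with no filter (0.0597), with a replicate block (0.0665) and under median-of-ratios scaling (0.0583). lrk-1 stood at 7.57 ± 0.468 in N2 and 6.89 ± 0.0354 in WLZ3 (log2 change -0.12, adjusted p = 0.238), but 0.11 after quantile normalization. Human LRRK2 itself was not analysed here.

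A few other loci switched between strains, and these were among the largest rises. T10H9.10, a noncoding RNA gene of 141 bases close to snb-1 (chromosome V, 6659021 to 6659161, build WBcel235), was listed at 0 in all 3 N2 libraries and at 45.2, 38.5 and 45.9 FPKM in WLZ3. Taking 3 fragments (6 reads) per N2 library as the floor, it was at least 44.9-fold higher, and in WLZ1 it stood at 33.2 ± 2.37. The neighbours C08F11.7 and C08F11.6 (chromosome IV, 13636560 to 13638666) rose from 1.24 ± 0.201 to 15.6 ± 1.26 and from 2.44 ± 0.72 to 20.5 ± 0.354, close to their WLZ1 levels of 16.401 ± 1.77 and 22 ± 1.96. aex-5, a proprotein convertase that cuts peptide precursors, stood at 7.6, 5.79 and 7.63 FPKM in N2, 27.4, 27.8 and 29.5 in WLZ1 and 44.9, 44.8 and 49.7 in WLZ3, so that no library of one strain overlapped another strain. The pseudogene Y106G6E.3 (chromosome I, 10220455 to 10221252) separated the transgenic strains from each other and stood at 6.1, 5.41 and 5.91 FPKM in WLZ3 and at no more than 0.0798 in any N2 or WLZ1 library. Both Y106G6E.3 and T10H9.10 passed the filter through WLZ3 alone, so their differences are given with no test. Of all tested genes, 2 were over 5 FPKM in every WLZ3 library and under 1 in every N2 library, namely Y106G6E.3 and T10H9.10, and 0 showed the reverse.

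Most genes of synaptic transmission fell. Of 30 genes of synaptic vesicle release, all of which were expressed enough to test, 26 fell and 0 rose, with a median of -0.73. snt-1, the synaptotagmin that senses calcium at release sites, stood at 11.13, 14.2 and 13.1 FPKM in N2 and 5.17, 4.98 and 6.47 in WLZ3, 2.31-fold lower (adjusted p = 0.00126). The lowest N2 library was well above the highest WLZ3 library. In WLZ1 snt-1 was lower still, at 3.03 ± 0.578, and the list median of WLZ1 against N2 was -1.44. cpx-1 (complexin, a clamp on the fusion machinery) fell from 36 ± 1.01 to 17.3 ± 2.46, unc-2 (the presynaptic calcium channel) from 7.21 ± 1.153 to 3.26 ± 0.182, and rimb-1 (a RIM-binding scaffold of the active zone) from 5.54 ± 0.933 to 2.4 ± 0.151. rab-3, the Rab GTPase of synaptic vesicles, fell from 26.9 ± 6.85 to 14 ± 2.14 (adjusted p = 0.00702) and was the member with the largest fall among 26 tested Rab GTPases and regulators, of which 1 rose and 5 fell with a median of -0.03 (0.02 under median-of-ratios scaling). In a whole animal, fewer cells of a type and less RNA per cell cannot be told apart.

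Transmitter genes followed the same direction. Of 16 tested genes of transmitter synthesis and transport, 13 fell and 1 rose, with a median of -0.60 that was -0.32 among members averaging 5 FPKM or more. Of the 16, 3 were under 1 FPKM in every WLZ3 library and passed the filter through N2 alone. Each main fast transmitter was represented: eat-4 (glutamate loading of vesicles) fell from 3.08 ± 0.658 to 1.14 ± 0.0636 FPKM, unc-47 (GABA loading) from 2.97 ± 0.431 to 1.34 ± 0.18, unc-25 (GABA synthesis) from 13 ± 2.1 to 7.32 ± 1.22 and unc-17 (acetylcholine loading) from 3.17 ± 0.668 to 1.64 ± 0.23. For dopamine signalling, 12 tested genes gave 6 falls, 0 rises and a median of -0.36. The dopamine transporter dat-1 stood at 1.19, 2.06 and 1.79 FPKM in N2 and 0.784, 0.739 and 0.671 in WLZ3, and the receptor dop-1 at 1.57 ± 0.271 and 0.651 ± 0.162. The dopamine count dropped to 2 without WLZ3 replicate 1 or 3, and 4 of the 12 genes, dat-1 and dop-1 among them, were under 1 FPKM in every WLZ3 library and passed the filter through N2 alone. Ion channels of excitable cells gave 44 falls and 0 rises in 64 tested genes, with a median of -0.49. Of the 64, 4 passed the filter through N2 alone. So did 2 genes in each of the touch receptor, intraflagellar transport, neuropeptide-like and cuticlin lists. The synaptic vesicle, glial and hedgehog-related lists had 1 such gene each, and all tested genes 248. Such members add no support to the counts of falls.

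Genes of neuropeptide processing and many neuropeptide genes were lower. Of 14 genes for neuropeptide processing and dense-core vesicles, 12 fell and 1 rose, the riser being aex-5. ida-1, which sits in the dense-core vesicle membrane, stood at 31.6, 42.6 and 38.6 FPKM in N2 and 16.503, 15.7 and 18.5 in WLZ3, 2.22-fold lower (adjusted p = 0.000601), and egl-3, the main neuronal convertase, fell from 42.9 ± 1.32 to 24.6 ± 2.67. FMRFamide-like peptide genes gave 22 falls and 0 rises in 30 tested (14 falls without N2 replicate 2), with flp-15 down from 27 ± 1.81 to 12.63 ± 1.81 and flp-11, a sleep-promoting peptide, from 25.7 ± 3.02 to 13.4 ± 0.753. Of 61 tested genes for other neuropeptide-like proteins, 38 fell and 0 rose, with a median of -0.50. One of them, nlp-39, stood at 192.003, 221 and 219 FPKM in N2 and 61.6, 79.4 and 105 in WLZ3. Among 26 tested insulin-like peptides 8 fell (30.8%, beside 24.4% of all tested genes, and 5 under quantile normalization), including ins-7, ins-18 and ins-24, and 0 rose.

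Sensory neurons and their support cells showed the same direction. Of 13 tested genes of the touch receptor neurons, 9 fell and 1 rose, with a median of -0.72. mec-7, a tubulin of the touch neurons' large microtubules, stood at 20.8, 24.6 and 19.9 FPKM in N2 and 11.58, 7.57 and 11.21 in WLZ3 (adjusted p = 0.00201). mec-9, a secreted protein needed for touch, fell 4.16-fold to 0.908 ± 0.2 FPKM, mec-17, a tubulin acetyltransferase, from 9.94 ± 1.06 to 5.41 ± 1.72, and the tau-like gene ptl-1 from 12.06 ± 2.03 to 5.1 ± 0.506. Intraflagellar transport genes, which build sensory cilia, gave 30 falls and 1 rise in 40 tested with a median of -0.48. Under quantile normalization there were 12 falls and a median of -0.28, and the falls numbered 11 without N2 replicate 2 or 3, 14 without WLZ3 replicate 1 and 15 without WLZ3 replicate 2. che-10, the rootletin that anchors cilia, fell from 9.1 ± 0.87 to 5.34 ± 0.432. Most chemoreceptor genes were too low to test, 21 of 1510 passing the filter. Of these 6 fell (28.6%, beside 24.4% of all tested genes) and 1 rose, with a median of -0.08 that turned to 0.12 with quantile normalization, which gave 3 falls and 4 rises. odr-10, the diacetyl receptor, stood at 1.74 ± 0.325 in N2 and 0.558 ± 0.146 in WLZ3 and was 1 of 3 chemoreceptor genes that passed the filter through N2 alone. Glial genes gave 8 falls and 0 rises in 14 tested, a count of 3 or 4 without any 1 library of N2 replicate 2 or 3 or of WLZ3 and of 1 under quantile normalization, with daf-6 (a protein that shapes the glial channel around sensory endings) down from 3.3 ± 0.653 to 1.51 ± 0.202.

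**Figure D2:**
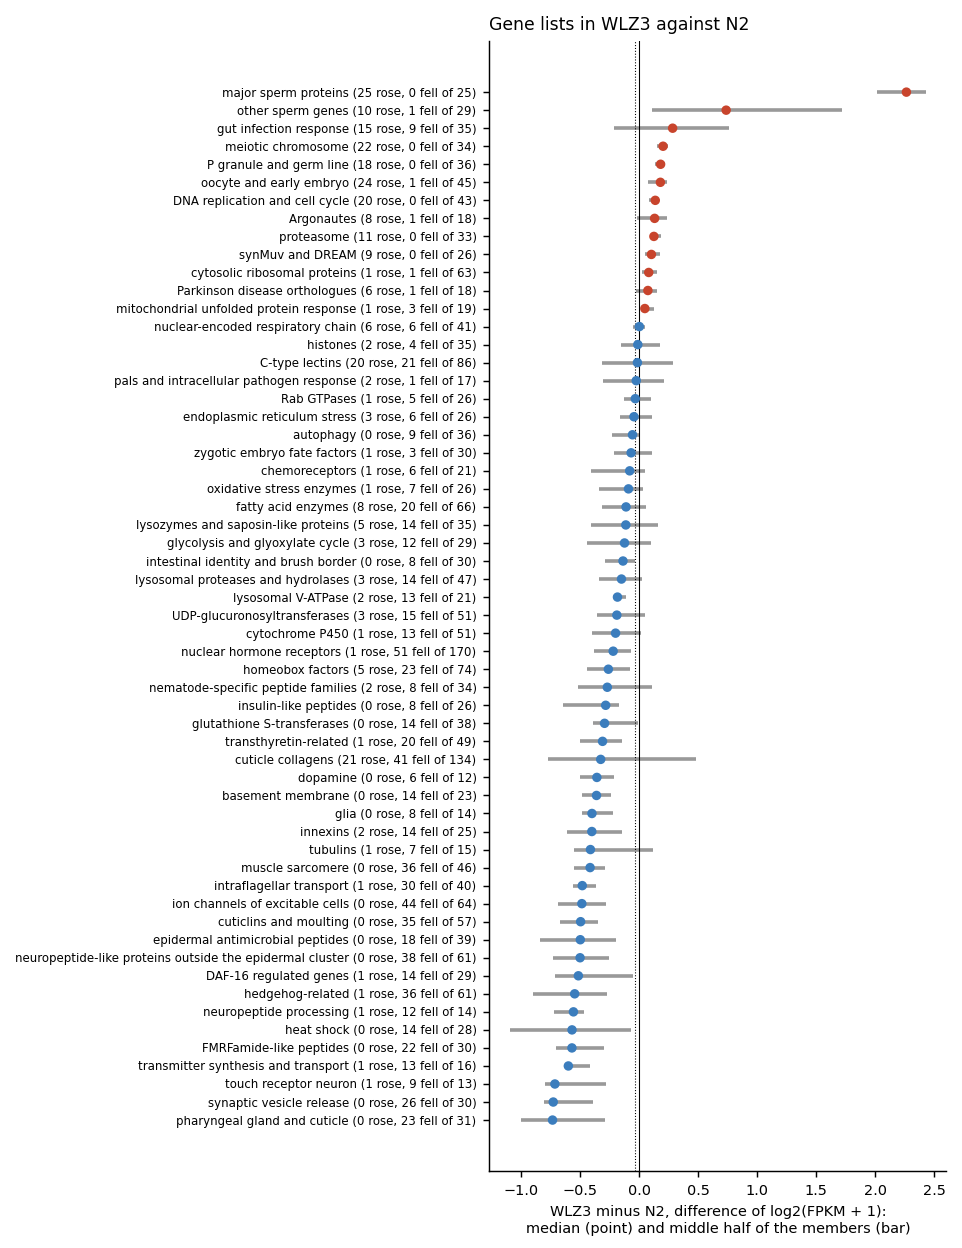
Median change (point) and range from the lower to the upper quartile of the tested members (bar) in WLZ3 against N2, as a difference of log2(FPKM + 1), for each list with at least 10 tested members, with its counts of called rises and falls. The dotted line is the median of all tested genes (-0.04). Pharyngeal, synaptic and touch neuron lists have the lowest medians, and the sperm lists the highest.

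Genes of muscle and of the feeding organ, the pharynx, were lower as well. Of 46 genes of the sarcomere, the contractile unit of muscle, 36 fell and 0 rose (21 falls without N2 replicate 2), with a median of -0.42. The largest falls named here were in pharyngeal isoforms. tnt-4, a troponin T, stood at 67.7, 89.9 and 77.8 FPKM in N2 and 33, 26.9 and 36.5 in WLZ3, 2.44-fold lower (adjusted p = 0.000802). The pharyngeal myosins myo-2 and myo-1 fell from 30 ± 6.12 to 11 ± 1.51 and from 24.5 ± 3.83 to 10.1 ± 1.121. The 31 tested genes of pharyngeal gland cells and the lining cuticle gave 23 falls, 0 rises and a median of -0.74 (13 falls without N2 replicate 2 and 15 without N2 replicate 3). pqn-71, a protein rich in glutamine and asparagine, fell 3.57-fold from 19 ± 6.28 to 5.31 ± 0.301, and the gland gene phat-5 2.9-fold from 38.7 ± 12.25 to 13.3 ± 0.911. Gap junction genes (innexins) gave 14 falls and 2 rises in 25 tested, and inx-6 of the pharynx fell from 20.8 ± 4.65 to 9.36 ± 0.956. In the basement membrane list 14 of 23 genes fell and 0 rose (8 without N2 replicate 2 or 3, 9 without WLZ3 replicate 2 or under quantile normalization), among them the perlecan unc-52, which anchors muscle, from 18.6 ± 2.74 to 11 ± 1.28.

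Epidermal matrix genes other than collagens fell. Cuticlins and moulting genes gave 35 falls and 0 rises in 57 tested, with a median of -0.50. cut-2, a cuticlin of the cuticle's insoluble layer, stood at 254, 370.3 and 339.6 FPKM in N2 and 126, 119.9 and 135 in WLZ3, 2.53-fold lower (adjusted p = 0.00223), and cut-3 fell from 111.6 ± 21.9 to 43 ± 6.01. Hedgehog-related proteins, an expanded worm family that acts in moulting, gave 36 falls and 1 rise in 61 tested with a median of -0.55. grd-10 and grd-13, both on chromosome IV, fell 3.19-fold and 3.14-fold. Epidermal antimicrobial peptides gave 18 falls and 0 rises in 39 tested, led by fipr-26, which stood at 5.98, 11.56 and 12.5 FPKM in N2 and 0.436, 1.19 and 2.1 in WLZ3.

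**Figure D3:**
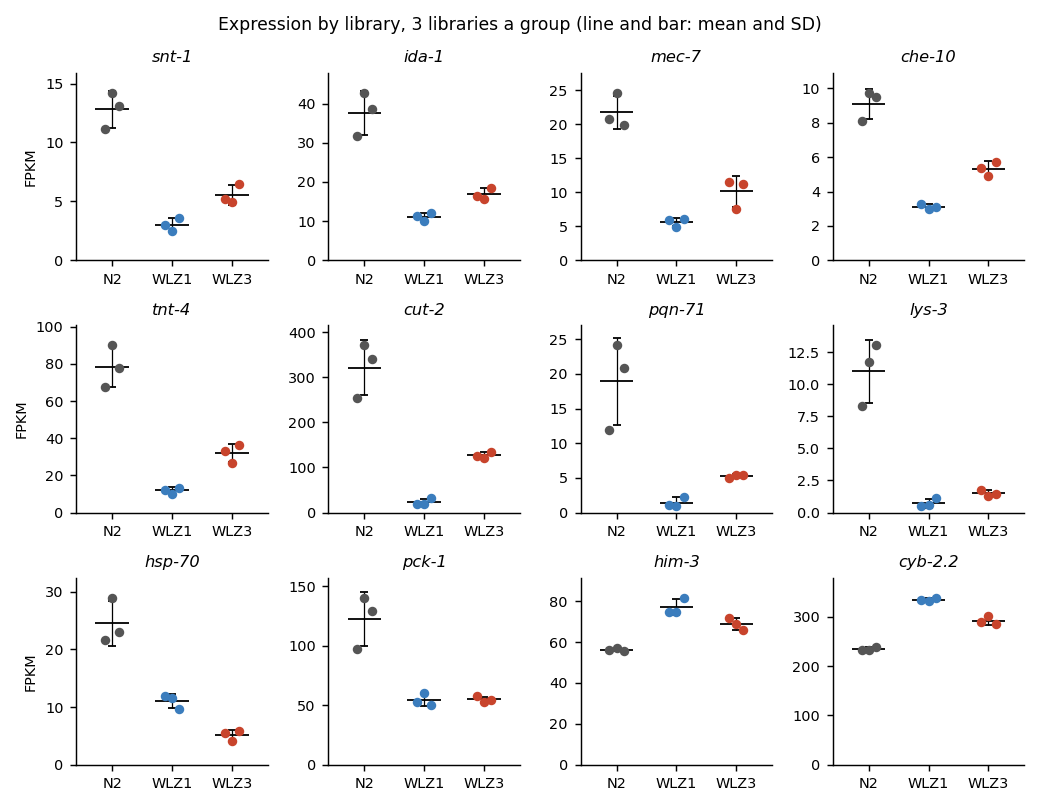
FPKM in each library of N2, WLZ1 and WLZ3 (points) with the mean (line) and SD (bar, n = 3), each axis from 0. In the 10 genes that fell against N2, such as snt-1, tnt-4, cut-2 and hsp-70, no WLZ3 library reaches the lowest N2 library, and in him-3 and cyb-2.2 every WLZ3 library lies above N2.

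Cuticle collagens went in both directions. Of 179 collagen genes, 134 were tested, with a median of -0.33. Of these 21 rose (15.7%, beside 13.9% of all tested genes) and 41 fell (30.6%, beside 24.4%). The falls include col-56 and col-69, the 2 collagens that passed the filter through N2 alone and add no support. Among the 27 with at least 100 FPKM in N2, 13 rose and 8 fell. Those 13 rose 1.23-fold to 2.04-fold and summed to 5540, 5245 and 5031 FPKM in the N2 libraries and 8135, 6795 and 7253 in WLZ3. The falls ran from 1.24-fold to 3.76-fold, in genes with means of 1.55 to 566 FPKM in N2. A further 6 collagens, all under 5 FPKM in N2, were 9.42-fold to 80.1-fold higher with a wide spread in WLZ3. Only 3 of these 6 reached 1 FPKM in every N2 library, so the others passed the filter with the help of WLZ3 and are given as a description. col-81 stood at 1.38, 0.602 and 0.633 FPKM in N2 and at 155, 7.2 and 47.6 in WLZ3, and col-139 and col-129 had the same order, at 189, 8.62 and 54.9 and at 142, 6.26 and 44.1. col-88 and col-133 were no longer called without N2 replicate 2 (adjusted p = 0.0509 and 0.0718) or N2 replicate 3 (0.0604 and 0.066). All 6 were highest in WLZ3 replicate 1, then 3, then 2, an order that 19.6% of all tested genes had. The number of collagens that fell was 25 without N2 replicate 2 or WLZ3 replicate 2 and 26 without WLZ3 replicate 3. WLZ3 was above WLZ1 at 111 of the 134 and below it at 0.

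Sperm genes had the largest median rise of any list and the widest spread among the WLZ3 libraries. Major sperm proteins, which build the crawling motor of worm sperm and signal to oocytes, rose at 25 of the 34 genes with a median of 2.26, and the other 9 were too low to test. Because 24 of the 25 were under 1 FPKM in at least 1 N2 library, they passed the filter with the help of WLZ3, and the count is no support for a rise. Summed over these 25 genes, FPKM came to 73.8, 26.8 and 11.145 in the N2 libraries, to 688, 89 and 222 in WLZ3 and to 1115, 891 and 969 in WLZ1. Each WLZ3 library lay above each N2 library and below each WLZ1 library, although WLZ3 replicate 2 was close to N2 replicate 1. msp-57 stood at 4.58, 2.66 and 0.739 FPKM in N2 and 53.3, 7.29 and 21.5 in WLZ3. These genes are nearly identical copies, so reads may be split between them and the members are not independent. The count of rises was 7 without N2 replicate 2 and 6 without N2 replicate 3, and 19 without WLZ3 replicate 1. Of the 25, 24 had the library order of the 6 low collagens (WLZ3 replicate 1, then 3, then 2). The part of this library order in the results was not tested. Other sperm genes gave 10 rises and 1 fall in 29 tested of 74, of which 15 reached 1 FPKM in every N2 library, so the count is again no support. Their median of 0.74 was 0.20 among members averaging 5 FPKM or more and 0.30 without WLZ3 replicate 1. The rises numbered 2 without N2 replicate 2, 1 without N2 replicate 3, 6 without WLZ3 replicate 3 and 16 without WLZ3 replicate 2.

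**Figure D4:**
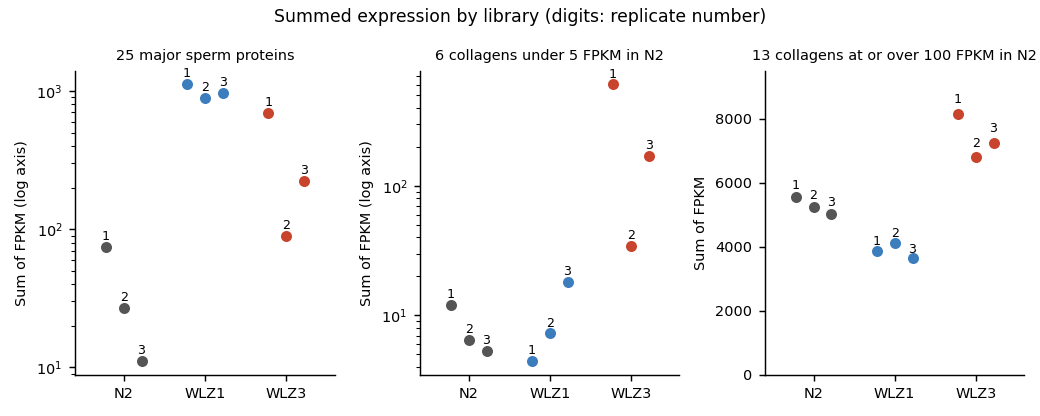
Summed FPKM in each library (digits give the replicate number) of the 25 tested major sperm proteins, of the 6 collagens that rose from under 5 FPKM (both on log axes) and of the 13 collagens that rose from at least 100 FPKM (axis from 0). In all 3 sets WLZ3 replicate 1 is the highest WLZ3 library and replicate 2 the lowest.

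Part of the germline and early embryo genes rose, by small amounts. Of 34 genes of meiotic chromosomes, 22 rose and 0 fell, with a median of 0.20. him-3, a protein of the chromosome axis, stood at 56.2, 57.1 and 55.6 FPKM in N2 and 71.8, 68.7 and 65.8 in WLZ3, 1.22-fold higher (adjusted p = 0.0035), and chk-2, the kinase that starts pairing, rose 1.35-fold from 6.22 ± 0.506 to 8.39 ± 0.129. P granule and germline genes gave 18 rises and 0 falls in 36 tested, with car-1 up 1.24-fold. In the list of oocytes and early embryos 24 of 45 rose and 1 fell, with gld-1, the repressor of translation that controls entry into meiosis, up 1.245-fold from 470.0 ± 33 to 585 ± 13.3, and cyb-2.2, a cyclin B, from 234, 234 and 239 to 289.6, 302 and 285 (adjusted p = 0.00099). The replication and cell cycle list gave 20 rises and 0 falls in 43, including orc-2 of the origin recognition complex, from 35.9 ± 1.2 to 44 ± 2.53. Proteasome subunits gave 11 rises and 0 falls in 33, with pas-7 up 1.17-fold and pas-5 up 1.153-fold. Proteasome rises numbered 18 under median-of-ratios scaling, and replication rises 8 under quantile normalization. Zygotic embryo fate factors, which act later in development, gave 1 rise and 3 falls in 30 tested, with a median of -0.07. Of 26 synMuv and DREAM genes, chromatin regulators that include the lin-15 pair of the marker, 9 rose and 0 fell.

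Counts of these small rises depended on single libraries. Without N2 replicate 2 the rises numbered 11 for meiotic chromosomes, 9 for P granules, 15 for oocytes and embryos, 7 for replication and 5 for synMuv and DREAM genes. Without N2 replicate 3 they numbered 13, 7, 14, 9 and 5, and without WLZ3 replicate 1 they were 11, 8, 15, 9 and 4. Leaving out WLZ3 replicate 2 gave 15 for oocytes and embryos, 8 for replication, 4 for synMuv and DREAM genes and 5 for the proteasome, which stood at 6 without WLZ3 replicate 1. The medians of these lists were above 0 under both other scalings. Yolk protein genes and their receptor gave 0 rises and 0 falls in 7 tested, and the gut-made vit-1 stood at 199.8, 134 and 113 FPKM in N2 and 200.4, 179 and 204.8 in WLZ3 (adjusted p = 0.0806), a rise that was called without N2 replicate 1 (adjusted p = 0.00207).

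Part of the heat shock genes fell, and hsp-70 lay below both references. Of 28 genes for heat shock proteins and their partners, 14 fell and 0 rose, with a median of -0.57 that was -0.13 among members averaging 5 FPKM or more. hsp-70, the heat-inducible chaperone, stood at 21.6, 29 and 23.1 FPKM in N2, 12, 11.57 and 9.63 in WLZ1 and 5.43, 4.08 and 5.82 in WLZ3, with no overlap between strains (adjusted p = 0.000105 against N2 and 0.00101 against WLZ1). The small heat shock genes hsp-16.41 and hsp-16.2, neighbours on chromosome V with similar sequences, stood at 39.4 ± 16.09 and 43 ± 17.3 in N2 and 7.23 ± 1.14 and 8.32 ± 0.466 in WLZ3. N2 replicate 1 was the lowest N2 library for both, at 23.2 and 24.5. hsp-12.3, another small heat shock gene, fell from 15 ± 4.97 to 4.93 ± 0.737.

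Several metabolic genes that respond to insulin signalling and fasting were lower. In the list of genes regulated by DAF-16, the FOXO factor of the insulin pathway, 14 of 29 fell and 1 rose, with a median of -0.52. The largest rise in this list was 0.27, because it leaves out the dod genes that are given with the defence genes below. Of those, dod-24 rose by 2.07, while dod-17 (0.41) and dod-22 (0.60) were not called. fat-7, a fatty acid desaturase, stood at 30, 26.1 and 24.9 FPKM in N2 and 12, 14.4 and 10.6 in WLZ3. Trehalose synthesis (tps-2) fell from 22.7 ± 5 to 11.13 ± 0.869. Glycolysis and glyoxylate cycle genes gave 12 falls and 3 rises in 29, and no rise was called without N2 replicate 2 or 3 or WLZ3 replicate 1 or 2 or under quantile normalization. pck-1, the committed enzyme of gluconeogenesis, stood at 97, 140.4 and 129.4 FPKM in N2 and 57.6, 52.8 and 54.2 in WLZ3, 2.23-fold lower (adjusted p = 0.000802), and icl-1 of the glyoxylate cycle fell 1.67-fold from 281 ± 43.5 to 169 ± 16.9. The cytochrome P450 gene cyp-13B1 fell 3.08-fold from 63.6 ± 3.2 to 20.6 ± 5.33, in a family with 13 falls in 51 tested (25.5%, beside 24.4% of all tested genes) and a median of -0.20 that turned to 0.03 with quantile normalization. Among 170 tested nuclear hormone receptors 51 fell and 1 rose, beside falls at 24.4% of all tested genes, with a median of -0.22. Under quantile normalization they gave 20 falls, 10 rises and a median of -0.01. The number of falls was 24 without N2 replicate 2, 29 without N2 replicate 3 or WLZ3 replicate 2 and 33 without WLZ3 replicate 1.

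With the deposited values, lysosome and Parkinson-related genes had medians closer to that of all genes than the neuronal lists other than chemoreceptors. Of 21 V-ATPase genes, whose products acidify lysosomes, 13 fell and 2 rose (8 falls without N2 replicate 2 and 5 under median-of-ratios scaling), led by vha-5, a subunit of epidermis and excretory cell, from 32.7 ± 2.49 to 19.2 ± 1.82. The cathepsin B gene cpr-4 stood at 542, 461 and 529.9 FPKM in N2 and 218, 279 and 297 in WLZ3 (adjusted p = 0.000853). Its list of 47 lysosomal proteases and hydrolases gave 14 falls (29.8%, beside 24.4% of all tested genes) and 3 rises, with 9 falls without WLZ3 replicate 1. Autophagy genes gave 9 falls (25%, beside 24.4% of all tested genes) and 0 rises in 36. The cargo receptor sqst-1 was down 1.62-fold and the TFEB-like factor hlh-30 down 1.34-fold. Autophagy falls numbered 3 without N2 replicate 2 or 3 or WLZ3 replicate 1 and 4 without WLZ3 replicate 2. Among 18 tested relatives of human Parkinson's disease genes 6 rose and 1 fell, with a median of 0.07, and the rises numbered 0 without N2 replicate 2 and 2 without N2 replicate 3 or any WLZ3 library. pdr-1 (parkin) stood at 58.8 ± 3.36 in N2 and 67.6 ± 3.27 in WLZ3 (adjusted p = 0.0224), and the call was lost without N2 replicate 1 or 2 or WLZ3 replicate 2 (adjusted p = 0.0556, 0.0701 and 0.081). gba-3, a glucocerebrosidase, stood at 12.15 ± 0.255 and 9.48 ± 0.445 (adjusted p = 0.016), a call lost without N2 replicate 2 (0.0535), without WLZ3 replicate 1 (0.053) and with quantile normalization (0.229).

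Defence genes went in both directions. In the list of genes induced in the gut by infection, 15 of 35 rose (42.9%, beside 13.9% of all tested genes), with a median of 0.28. In the same list 9 fell (25.7%, beside 24.4% of all tested genes). Of the 35, 2 were under 1 FPKM in every N2 library and passed the filter through WLZ3 alone, so they add no support to the rises. There were 5 falls without N2 replicate 2 or 3 or WLZ3 replicate 2 or 3, and 5 falls with a median of 0.49 under quantile normalization. dod-24, a secreted protein with a CUB-like domain, stood at 33.8, 40.2 and 37.8 FPKM in N2, 72.1, 80.7 and 73.4 in WLZ1 and 147, 169.8 and 161 in WLZ3, 4.28-fold higher than N2 (adjusted p = 1.4e-06). mbug-1 stood at 11.65, 9.62 and 10.9 in N2, 18.1 ± 2.23 in WLZ1 and 63.5, 57.5 and 79.9 in WLZ3, 6.26-fold higher than N2 (adjusted p = 1.46e-05). irg-6, an infection response gene, was at 7.94 ± 1.24 in N2, 7.86 ± 0.742 in WLZ1 and 23.7 ± 3.77 in WLZ3. C-type lectins, a family of sugar-binding proteins, went both ways, with 20 rises and 21 falls in 86 tested of 259. The rises were 23.3%, beside 13.9% of all tested genes, and numbered 13 without N2 replicate 2. The falls were 24.4%, the same share as over all tested genes. clec-223 rose 3.94-fold from 3.51 ± 0.51 to 13.8 ± 0.324, and clec-190 stood at 15.1 ± 2.85 in N2, 3.67 ± 0.727 in WLZ1 and 40.7 ± 7.57 in WLZ3. Lysozymes and saposin-like proteins gave 14 falls in 35 tested (40%, beside 24.4% of all tested genes). The falls numbered 7 without N2 replicate 2 or 3 or WLZ3 replicate 2 or under quantile normalization. Rises numbered 5, close to the share of all tested genes (14.3% beside 13.9%), and 2 without N2 replicate 2 or 3 or WLZ3 replicate 1. lys-3 fell 7.4-fold from 11 ± 2.44 to 1.49 ± 0.238. spp-27 fell 11-fold from 7.04 ± 2.29 to 0.64 ± 0.0683 and passed the filter through N2 alone.

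Several of these defence genes lay side by side. On chromosome IV the stretch from K08D8.4 to dod-17 (12907469 to 12978343, 70.9 kb, build WBcel235), chosen after its values were seen, held 15 tested genes. Of these 11 rose against N2 and 1 fell, and 11 were above WLZ1 and 1 below. It holds irg-6, dod-21, dod-24 and mbug-1, and dod-21 stood at 0.115 ± 0.0553 in N2, 0.196 ± 0.045 in WLZ1 and 3 ± 0.554 in WLZ3. cld-1 stood at 0, 0.037 and 0 in N2 and 1.51, 1.02 and 1.01 in WLZ3. Both dod-21 and cld-1 count among the 11 rises but passed the filter through WLZ3 alone, so they add no support. C32H11.7 rose against N2 and lay below WLZ1, and srlf-4 fell against N2 and lay above WLZ1, so the stretch did not move as a block. Since it was picked for its rises, the counts describe it and are no test.

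**Figure D5:**
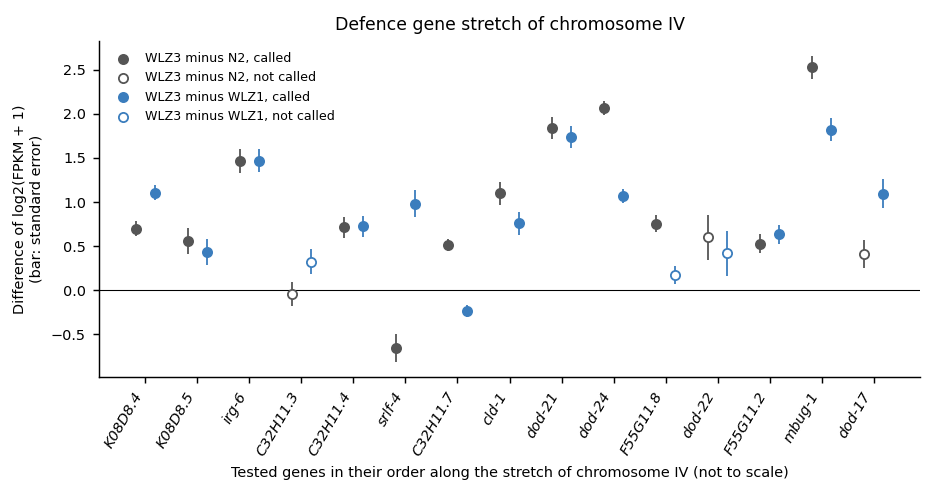
Difference of log2(FPKM + 1) with its standard error for the 15 tested genes from K08D8.4 to dod-17 in their order along chromosome IV, for WLZ3 against N2 (grey) and against WLZ1 (blue). Filled points are called, open points are not, and 11 of the 15 are called higher against N2 with mbug-1 and dod-24 the highest.

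Some genes set WLZ3 apart from both N2 and WLZ1 in the same direction. Called in both comparisons, and with libraries that overlapped neither group, 189 genes were higher in WLZ3 and 68 lower, out of 14115. Against N2 alone, the libraries did not overlap at 53.4% of all tested genes. Because both comparisons use the same WLZ3 libraries, a chance deviation of WLZ3 enters both. The higher ones included aex-5 and mbug-1, above. col-81 and Y106G6E.3 were also among them, but they passed the filter with the help of WLZ3 or through it alone. They are given as a description only. Among the lower ones, F12A10.1 stood at 33.7, 32.9 and 31.4 FPKM in N2, 36.2, 34.1 and 29.9 in WLZ1 and 13.8, 17.1 and 17.2 in WLZ3, so that the references overlapped each other and WLZ3 lay below both, at 0.489 of N2. fbxa-192, an F-box gene, stood at 25.5 ± 1.46, 19.3 ± 1.2 and 9.24 ± 1 in N2, WLZ1 and WLZ3, and catp-3, a cation-pumping ATPase, at 52.5 ± 3.99, 37.3 ± 2.47 and 26 ± 4.22. ins-24, an insulin-like peptide, stood at 5.32 ± 1.27, 3.17 ± 0.229 and 1.81 ± 0.211.

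List medians against WLZ1 differed in sign. Synaptic vesicle genes had a median of 0.65 in WLZ3 against WLZ1, sarcomere genes 0.80, pharyngeal gland and cuticle genes 1.09, hedgehog-related genes 0.77 and collagens 1.37, beside the 0.12 of all tested genes. With quantile normalization these were 0.27, 0.60, 0.71, 0.45 and 1.18 beside -0.05. Major sperm proteins had -1.92, oocyte and embryo genes -0.20 and proteasome genes -0.18. Heat shock genes, genes regulated by DAF-16 and yolk genes had -0.11, -0.04 and -0.28, while against N2 their medians were -0.57, -0.52 and 0.08. Quantile normalization turned the medians of other somatic lists from positive to negative, to -0.03 for dopamine, -0.11 for insulin-like peptides, -0.08 for tubulins and -0.13 for chemoreceptors.

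Some classes stayed near the median of all genes or were mostly noncoding. Cytosolic ribosomal proteins gave 1 rise and 1 fall in 63 tested, and the nuclear-encoded respiratory chain 6 rises and 6 falls in 41. Under median-of-ratios scaling the ribosomal list had 13 rises and the respiratory chain 2 falls. Respiratory chain falls numbered 1 without N2 replicate 2 or WLZ3 replicate 2, 2 without WLZ3 replicate 3 and 3 without N2 replicate 1, and its rises 3 under quantile normalization and without N2 replicate 2 or 3 or WLZ3 replicate 1 or 3. Of 375 tested pseudogenes 67 rose and 17 fell. Of 276 tested piRNA genes, each of 21 bases, 17 rose and 20 fell, but 1 read in such a gene is worth 0.893 to 1.249 FPKM, so these values rest on very few reads. The counting is not stated to use strand, so antisense and overlapping genes could not be told apart.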

How the data were processed

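Poly(A) RNA from whole animals was sequenced for 9 libraries, 3 each of N2, WLZ1 and WLZ3. The authors deposited 1 table of FPKM values per gene and library. Reads were trimmed with fastp 0.23.2, aligned with HISAT2 2.2.1 to WBcel235 and counted with featureCounts 2.0.3, per the submitters' processing notes; neither the strand setting nor the gene length used is stated there. Gene positions and types came from a RefSeq gene table of WBcel235. Total reads per library were recovered from the spacing of low FPKM values with exon lengths of Ensembl 115, and the floor of 3 fragments covers counting error only.

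The filter kept genes that reached 1 FPKM in 3 or more of the 6 N2 and WLZ3 libraries. limma 3.58.1 (R 4.3.3, trend, no replicate block) was fitted to log2(FPKM + 1) of all 9 libraries, and p-values were adjusted by Benjamini-Hochberg over all 14115 genes. Calls required an adjusted p under 0.05. Folds are ratios of mean FPKM, while log2 changes carry the pseudocount of 1, which understates the change of low genes. Tables were read with Python 3.11.15, pandas 2.3.3 and numpy 2.4.6, plots drawn with matplotlib 3.10.9, and the fit was tested on simulated data. No count model was used, since the values are not counts.

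Members and gene lists were chosen with earlier results of these data known. The genes named are lrk-1, snb-1 and the lin-15 pair, the 15 largest called rises and falls among genes of at least 5 FPKM, up to 4 called members of each list with the largest change (up to 2 with the smallest p where none was called), up to 10 rises and 10 falls called against both N2 and WLZ1, genes present in one strain alone, the 10 with the widest spread in WLZ3, and up to 5 noncoding rises and falls. A selection of these is printed. The stretch on chromosome IV and the split of the collagens by level were chosen after their values were seen. Families of near-identical copies (major sperm proteins, small heat shock genes, collagens) may share reads.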

Additional observations from a re-analysis of the deposited data

How the results depend on the processing

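Of 118 called genes examined, none changed direction under any alternative tried: pseudocounts of 0.5 and 0.1, no filter, a mean of at least 5 FPKM, median-of-ratios scaling, quantile normalization, a replicate block, only the libraries of the 2 groups compared, and each library left out. At a mean of at least 5 FPKM some of the 118 fell below the filter. The number that lost their call was highest without N2 replicate 2, at 8. The uncalled lrk-1 turned from -0.12 to 0.11 with quantile normalization. Against N2, higher genes numbered 2975 with median-of-ratios scaling, and lower genes 2090 at a mean of at least 5 FPKM. Leaving out 1 library gave 3333 to 5743 calls, 1097 to 2110 higher and 2236 to 3697 lower. Against WLZ1, higher genes numbered 2754 at a mean of at least 5 FPKM and 1949 with quantile normalization, and lower genes 3716 under median-of-ratios scaling and 2535 under quantile normalization. Leaving out 1 library there gave 4109 to 6206 calls, 3332 to 4661 higher and 777 to 1545 lower. Fewer genes were tested at the higher filter and fewer libraries entered each such fit, and the cause of the shifts with scaling was not tested. A replicate block gave 4487 calls against N2, 1527 higher and 2960 lower, and 4983 against WLZ1. The deviations of same-numbered N2 and WLZ3 libraries correlated at 0.235, 0.0135 and 0.133, and those of differently numbered ones at -0.2605 to 0.1719. Not every library correlated best with its own number. With 3 libraries a group, deviations from the group mean are tied to each other, so this cannot decide whether the numbers pair the libraries. Depth limits the low genes and the 21-base piRNAs most.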

Other observations

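A few genes differed widely between the libraries of WLZ3, and no test was made of this spread. C10C6.9 stood at 61.1, 1.52 and 0.767 FPKM in the WLZ3 libraries. Y45G12C.16 stood at 1.38, 1.11 and 22.7. nspc-7, of a family of nematode-specific peptides, stood at 8.59, 7.51 and 98 in WLZ3, at 114, 123 and 128 in N2 and at 123, 115.3 and 7.99 in WLZ1, so that libraries of both transgenic strains fell to the same low level and others did not. None of these genes was called against N2.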
